A study of Homo sapiens with 6 samples.

Results

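Glycolysis, the pentose phosphate path and the entry of pyruvate into mitochondria were followed through 39 genes, taken by name from a list of glucose transporters, glycolytic enzymes, lactate enzymes and transporters, pentose phosphate enzymes, and the carriers, subunits and kinases that serve pyruvate dehydrogenase. All 39 were among the 62710 genes of the deposited count table, and all 39 were among the 16753 genes that passed the filter on low counts. HCT116, a line of human colon cancer cells, was grown as stable lines after lentiviral infection and puromycin selection. The sh-NC group carried a scrambled shRNA, and the sh-IGF2BP3 group carried an shRNA against IGF2BP3, an RNA-binding protein that reads m6A marks and stabilizes bound mRNAs. Each group had 3 libraries from total RNA, and each arm was 1 selected derivative of this line with 1 shRNA sequence. The labels do not say whether the 3 libraries of a group came from separate cultures, so the tests measure the spread between these libraries, which may be technical.

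Glucose enters the cell through GLUT transporters, is trapped as glucose 6-phosphate by hexokinase, and is split by the preparatory enzymes of glycolysis into triose phosphates. The payoff enzymes then recover ATP and NADH and yield pyruvate. Pyruvate is either reduced to lactate by lactate dehydrogenase and exported by the monocarboxylate transporters, or carried into mitochondria and oxidized by the pyruvate dehydrogenase complex, which pyruvate dehydrogenase kinases switch off. The pentose phosphate path branches off at glucose 6-phosphate to give NADPH and ribose 5-phosphate. NADPH supplies the reducing power for glutathione, which places this branch beside the ferroptosis question of the study. Colon cancer cells are known for high glycolytic flux with oxygen present.

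The targeted gene was checked first. The shRNA against IGF2BP3 and its control are shown because every comparison rests on them, in lower case throughout because no base is singled out.
sh-IGF2BP3: ggctcagggaagaatttat
sh-NC: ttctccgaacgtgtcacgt
The first spans exons 12 and 13 of the 15 exons of IGF2BP3, with both ends in the coding sequence, at chr7:23313636-23317639 on the minus strand (GRCh38, GENCODE 29), and also matches the annotated AC092447.1. The control matches no annotated transcript. IGF2BP3 stood at 90.3, 84.1 and 70.3 CPM, counts scaled by library size with TMM factors, in sh-NC 1, 2 and 3 and at 60.2, 52.3 and 55.8 CPM in sh-IGF2BP3 1, 2 and 3. The groups did not overlap, and the log2 fold change was -0.54 (SE 0.18, adjusted p = 0.126, edgeR quasi-likelihood test), so the reduction did not pass the threshold, which 0% of all tested genes passed. The study also reports the knockdown in its HCT116 line by qPCR and Western blot, which were not analysed here. The libraries held 16146718 to 23576469 counts, and pairs of libraries within a group were farther apart than counting error alone would put them, with chi-square values of 19.8 to 61.5 per degree of freedom. The epithelial markers EPCAM, CDH1, KRT8, KRT18, KRT19 and CDX2 were detected in all 6 libraries, whereas VIL1 and LGALS4 stayed at 3 counts or fewer. Immune markers did not exceed 36 counts over all libraries for any gene, and of the fibroblast markers COL1A1 was detected while COL1A2 and LUM were at 0. Summed, the epithelial list came to 2029 to 3702 CPM in sh-NC and 3142 to 4175 CPM in sh-IGF2BP3, the fibroblast list to 28.3 to 47.7 CPM and 29.9 to 58.7 CPM, and the endothelial list to 1.98 to 4.04 CPM and 1.24 to 3.72 CPM.

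Per unit of gene length, the payoff enzymes GAPDH, ENO1 and PKM were the most abundant members, while the payoff member ENO2 had 10.97 FPKM. GAPDH, the dehydrogenase that starts the payoff phase, had a mean level of 1222 FPKM, counts scaled by library total and gene length, over the 6 libraries, followed by the enolase ENO1 with 479 FPKM, the pyruvate kinase PKM with 322 FPKM and the triose phosphate isomerase TPI1 with 223 FPKM. LDHA, the main lactate dehydrogenase subunit of cancer cells, had 156 FPKM. The glucose transporter SLC2A1 with 39.8 FPKM and the lactate exporter SLC16A3 with 34.5 FPKM lay in the middle of the range. The glucose transporter SLC2A3 was lower, with 2.88 FPKM. The lowest FPKM values belonged to the kinases PDK1 with 1.23 FPKM and PDK3 with 1.81 FPKM, and to ENO3 with 2.65 FPKM and ALDOA with 2.83 FPKM. The value of PDK3 rests on a gene length of 17456 bases, against 4951 annotated exonic bases, so its place among the lowest is uncertain.

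Annotation overlaps bear on the levels of ALDOA and LDHB. ALDOA (ENSG00000149925, chr16:30064164-30070457, plus strand), the main aldolase of muscle and of most tumours, had 103 to 374 counts per library. GENCODE 29 places a second protein-coding gene, AC093512.2, on the same strand over 93.8% of its coding bases, and the deposited table gave that gene 285 counts in all 6 libraries together. LDHB, the heart-type lactate dehydrogenase subunit, had 175 to 263 counts per library and shared 93.5% of its coding bases with AC010197.2 on the same strand, which had 16 counts in all. How reads that fit more than 1 gene were counted is not given in the sources used here, so the levels of ALDOA and LDHB are uncertain. The use of strand is not given either, so reads of genes on the opposite strand may be included where exons overlap, which they do over 38.6% of the exonic bases of PDK2, 23.8% of RPE, 22.5% of MPC2, 21.3% of PDHA1, 14.2% of GAPDH and 5.36% of SLC16A3. Pseudogenes took few counts in the deposited table. Of 119 annotated pseudogenes of 17 members, only GAPDHP1 and TPI1P1 reached 50 counts in any library, and the highest value was 105.

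None of the 39 members passed the test between sh-IGF2BP3 and sh-NC (edgeR quasi-likelihood test, adjusted p under 0.05 with a fold change above 1.5), where 0% of all tested genes passed. At an unadjusted p under 0.05, 10 members were higher in sh-IGF2BP3, or 25.6%, against 13.6% of all tested genes, and 2 members were lower, or 5.13%, against 8.54% of all tested genes. Those 10 were ALDOA, SLC16A3, PFKL, TALDO1, TPI1, MPC2, PFKP, ENO1, GPI and TKT, and those 2 were PDK1 and PDK3. The log2 fold change was above 0 for 31 members and below 0 for 8, with a median of 0.29, against a median of -0.01 over all tested genes. The groups did not overlap for 11 members that were higher (28.2%, against 13.2% of all tested genes) and 2 that were lower (5.13%, against 11.01%). As this is RNA of whole cultures, fewer cells with an RNA and less of it per cell cannot be told apart. DESeq2 passed 2 members as higher, ALDOA and SLC16A3, and 0 as lower, against 4.29% and 1.05% of the 13087 genes to which it gave an adjusted p.

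**Figure D1:**
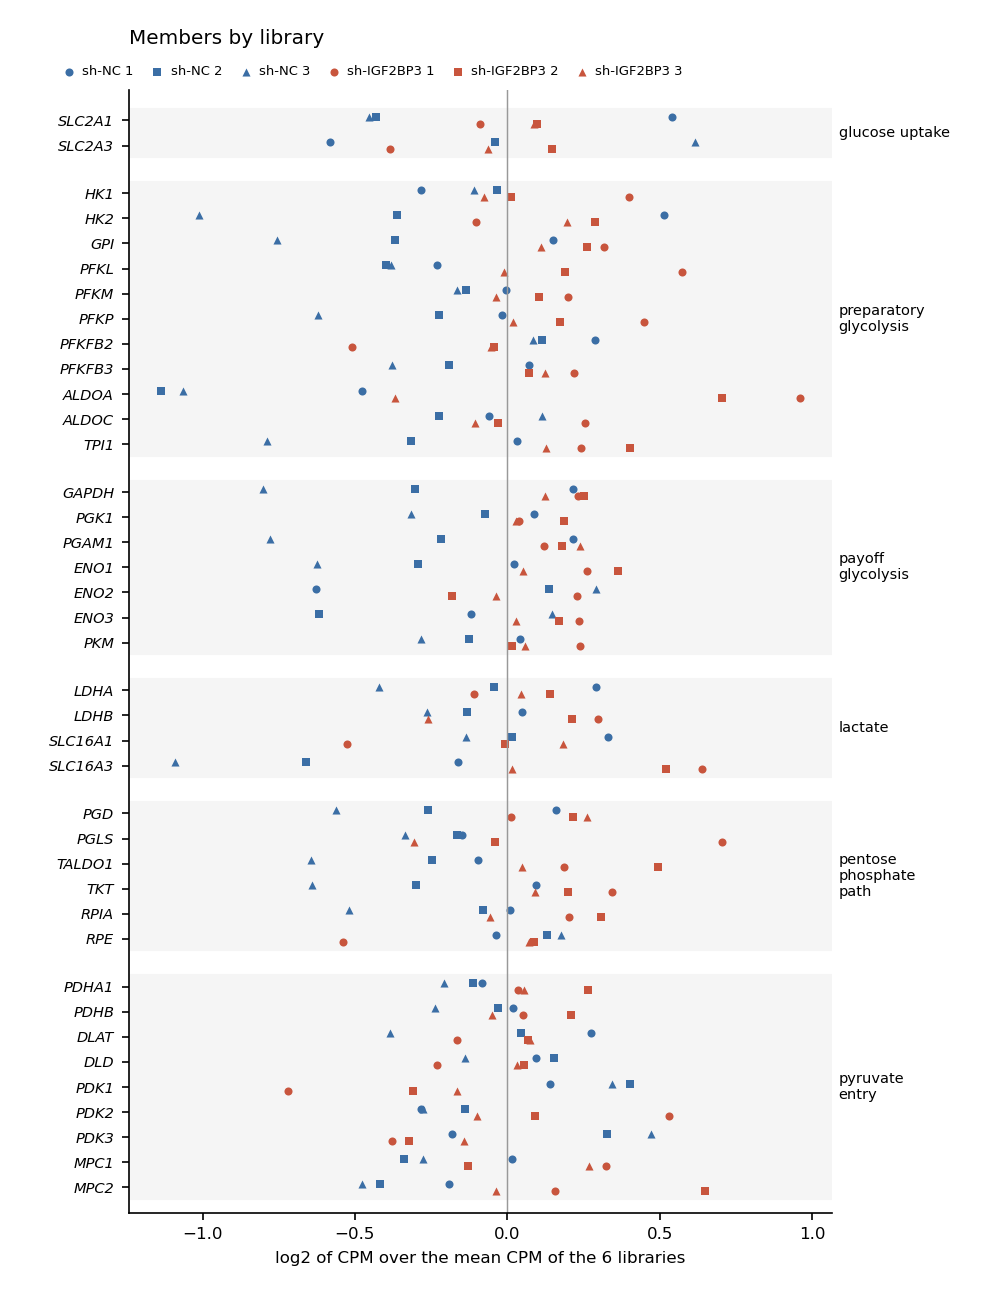
CPM of the 39 members in each library, as the log2 ratio to the gene's mean over the 6 libraries, grouped by step of the pathway; blue symbols are sh-NC and red symbols sh-IGF2BP3 libraries. The blue triangle (sh-NC 3) is the lowest of the 6 values for 24 members, and the blue circle (sh-NC 1) is the highest sh-NC value for 29.

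The control libraries were not alike for these genes. Of the 3 sh-NC libraries, sh-NC 1 was the highest for 29 of the 39 members, against 40.2% of all tested genes, and sh-NC 3 was the lowest for 27, against 36.3% of all tested genes. The 39 members took 1.54%, 1.31% and 1.13% of the counts in sh-NC 1, 2 and 3, against 1.72%, 1.63% and 1.52% in sh-IGF2BP3 1, 2 and 3, so that sh-NC 1 lay within the range of the sh-IGF2BP3 libraries (exact two-sided permutation test, p = 0.2, where 3 against 3 libraries cannot go below 0.1). The share of counts on mitochondrial genes moved the other way, with 6.12%, 7.32% and 7.76% in sh-NC 1, 2 and 3 and, without overlap, 5.24%, 5.47% and 5.89% in sh-IGF2BP3 1, 2 and 3, and its part in the result was not tested. For the 18 glycolytic enzymes alone the shares were 1.18%, 1.00% and 0.858% in sh-NC, against 1.36%, 1.26% and 1.18% in sh-IGF2BP3 (exact permutation test, p = 0.1). Both sh-NC 1 and sh-IGF2BP3 3 were at 1.177%, so this lowest possible p rests on almost no gap between the groups. Without sh-NC 1, 12 members passed the full threshold as higher, or 30.8%, against 10.01% of all tested genes. They were ALDOA, HK2, GPI, PFKL, PFKP, TPI1, GAPDH, PGAM1, ENO1, SLC16A3, TALDO1 and TKT. In the same fit PDK1 and PDK3 passed as lower, or 5.13%, against 5.67% of all tested genes. Without sh-IGF2BP3 3, ALDOA alone passed as higher, where 1.23% of all tested genes did. The number of members higher at an unadjusted p under 0.05 came to 17 without sh-NC 1, or 43.6%, against 17.7% of all tested genes. It came to 3, or 7.69%, without sh-NC 2, sh-NC 3 or sh-IGF2BP3 2, close to the 7.02%, 7.58% and 7.53% of all tested genes in those fits.

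**Figure D2:**
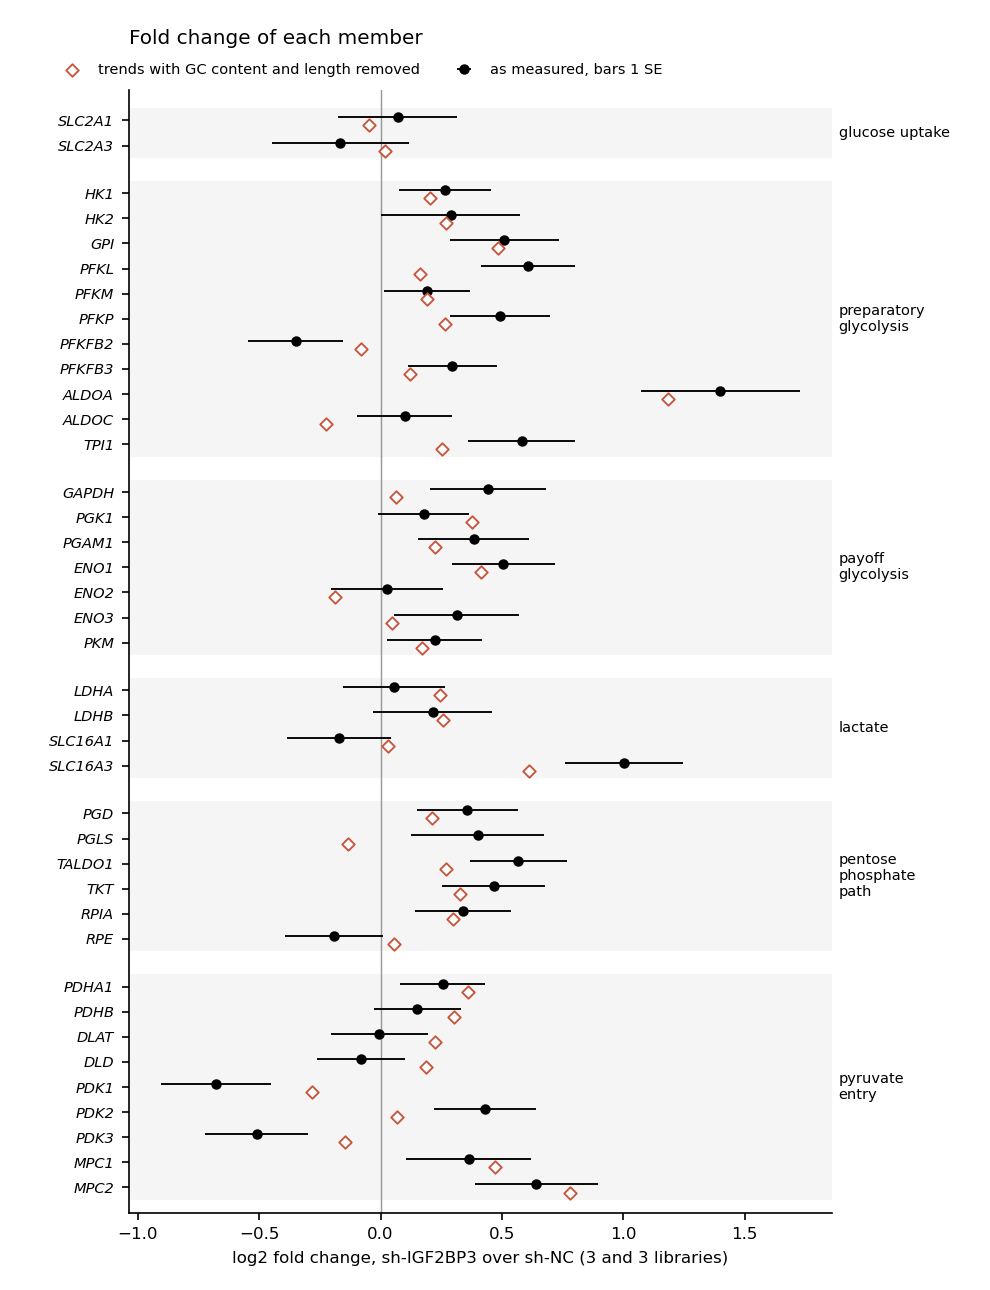
Log2 fold change of each member, sh-IGF2BP3 over sh-NC, from 3 and 3 libraries; black points are the values as measured with 1 SE, open diamonds the values after each library's trends with GC content and gene length were removed. ALDOA (1.40) and SLC16A3 (1.00) lie farthest to the right and PDK1 (-0.68) farthest to the left, and each moves toward 0 in the second set.

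The groups overlapped for the members of glucose uptake. SLC2A1, the GLUT1 transporter, had a log2 fold change of 0.07, or -0.12 without sh-NC 3, and SLC2A3, the GLUT3 transporter, one of -0.17, or 0.18 without sh-NC 3. The summed FPKM of the pair was mostly SLC2A1, which held 87.1% to 96.9% of it in the 6 libraries.

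Of the 11 preparatory members, 10 had log2 fold changes above 0, with a median of 0.30. PFKL, the liver-type subunit of phosphofructokinase, which commits sugar to glycolysis, stood at 121, 108 and 109 CPM in sh-NC and at 212, 162 and 141 CPM in sh-IGF2BP3. All 3 sh-IGF2BP3 values lay above all 3 sh-NC values, with a log2 fold change of 0.61 (SE 0.19, unadjusted p = 0.00671, adjusted p = 0.122, edgeR). The platelet-type subunit PFKP stood at 263, 228 and 173 CPM in sh-NC and at 364, 300 and 270 CPM in sh-IGF2BP3, also without overlap (0.49, SE 0.21, adjusted p = 0.183). The muscle-type subunit PFKM stood at 195, 178 and 174 CPM in sh-NC and 224, 210 and 190 CPM in sh-IGF2BP3, with overlapping groups (0.19, SE 0.18).

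Of the bifunctional enzymes that set fructose 2,6-bisphosphate, the activator of phosphofructokinase, 1 had a log2 fold change above 0 and 1 below 0. PFKFB3, the form with the strongest kinase activity, stood at 105, 87.7 and 76.9 CPM in sh-NC and at 117, 105 and 109 CPM in sh-IGF2BP3. Its groups did not overlap, but sh-NC 1 and sh-IGF2BP3 2 were at 105.0 and 105.2 CPM. PFKFB2 stood at 47.4, 42.0 and 41.2 CPM in sh-NC and at 27.3, 37.7 and 37.5 CPM in sh-IGF2BP3, with sh-IGF2BP3 1 the lowest of the 6 (-0.35, SE 0.20, unadjusted p = 0.0936).

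ALDOA had the largest log2 fold change of the 39, with the counting limit given above. It stood at 7.90, 5.00 and 5.26 CPM in sh-NC and at 21.4, 17.9 and 8.52 CPM in sh-IGF2BP3. The groups did not overlap, but sh-IGF2BP3 3 was close to sh-NC 1. The log2 fold change was 1.40 (SE 0.33, unadjusted p = 0.00059, adjusted p = 0.103, edgeR). AC093512.2, which shares its coding bases, had 40, 35 and 34 counts in sh-NC and 68, 49 and 59 counts in sh-IGF2BP3. The brain-type aldolase ALDOC stood at 33.6, 30.03 and 37.9 CPM in sh-NC and 41.9, 34.3 and 32.5 CPM in sh-IGF2BP3, with overlapping groups.

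TPI1, which interconverts the triose phosphates, stood at 623, 489 and 353 CPM in sh-NC and at 720, 805 and 665 CPM in sh-IGF2BP3, without overlap (0.58, SE 0.22, adjusted p = 0.15, edgeR). HK2, the inducible hexokinase of cancer cells, stood at 195, 106 and 67.8 CPM in sh-NC and at 127, 167 and 156 CPM in sh-IGF2BP3. The highest and the lowest of its 6 values were both sh-NC libraries, and its log2 fold change of 0.29 was as large as its SE of 0.29 and became -0.03 without sh-NC 3. The hexokinase HK1 and the phosphoglucose isomerase GPI had log2 fold changes of 0.27 and 0.51, both with overlapping groups.

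The 7 payoff members all had log2 fold changes above 0, from 0.03 for ENO2 to 0.51 for ENO1, with a median of 0.31, and 1 of the 7 did not overlap between the groups (14.3%, against 13.2% of all tested genes). That member was ENO1, the ubiquitous enolase, with 2563, 2060 and 1637 CPM in sh-NC and 3028, 3243 and 2613 CPM in sh-IGF2BP3 (SE 0.21, unadjusted p = 0.0311, adjusted p = 0.185, edgeR). The gap between the groups was small, as sh-NC 1 and sh-IGF2BP3 3 were 2563 and 2613 CPM. PKM stood at 2858, 2542 and 2280 CPM in sh-NC and 3272, 2804 and 2885 CPM in sh-IGF2BP3, with overlap. PGK1 and PGAM1, which act between GAPDH and enolase, had log2 fold changes of 0.18 and 0.38 and overlapping groups.

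GAPDH (ENSG00000111640, chr12:6534512-6538374, plus strand) needs a closer description because it was the internal control of the RT-qPCR in the study. It stood at 3437, 2401 and 1700 CPM in sh-NC and at 3481, 3524 and 3231 CPM in sh-IGF2BP3. The 3 sh-IGF2BP3 libraries lay close together, whereas the sh-NC libraries spread over a wide range that reached into that of sh-IGF2BP3. The log2 fold change was 0.44 (SE 0.24, unadjusted p = 0.0831, adjusted p = 0.289, edgeR). The RT-qPCR primers for GAPDH are shown to place the assay on the transcript.
GAPDH forward primer: gtggacctgacctgccgtctag
GAPDH reverse primer: gagtgggtgtcgctgttgaagtc
The primers match exon 8 of the 9 exons of GAPDH-201, at chr12:6537785-6537806 and, as the reverse complement, at chr12:6537911-6537933 (GRCh38, GENCODE 29), and enclose a product of 149 bases. Of all annotated transcripts, only those of GAPDH hold both primers, although the reverse primer also matches GAPDHP69, 1 of 62 annotated GAPDH pseudogenes. With both primers in 1 exon, genomic DNA would give a product of the same length.

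IGF2BP3 and SLC7A11, both lower in sh-IGF2BP3, differed by more when divided by GAPDH of the same library than by CPM. IGF2BP3 came to 26.3, 35.0 and 41.4 counts per 1000 GAPDH counts in sh-NC and to 17.3, 14.8 and 17.3 in sh-IGF2BP3, a ratio of the means of 0.481, against a ratio of 0.687 by CPM. SLC7A11, the cystine transporter at the centre of the study, came to 54.4, 98.4 and 111 counts per 1000 GAPDH counts in sh-NC and to 29.95, 27.98 and 32.2 in sh-IGF2BP3, a ratio of 0.342, against 0.501 by CPM. The groups did not overlap for either gene, and the exact two-sided permutation test gave p = 0.1 for both, the lowest value possible with 3 against 3 libraries. RNA of GAPDH in sequencing and in RT-qPCR need not change alike, and no RT-qPCR values were analysed here.

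**Figure D3:**
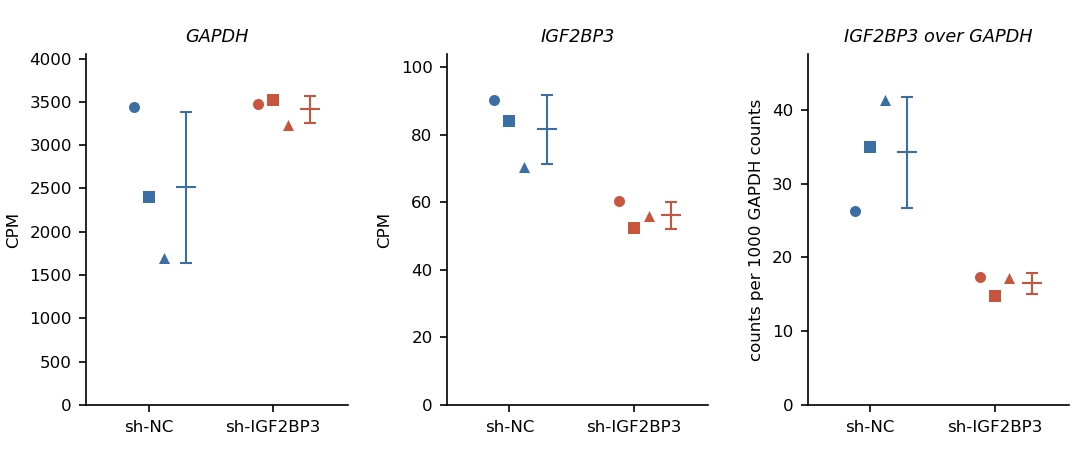
GAPDH in CPM, IGF2BP3 in CPM, and IGF2BP3 in counts per 1000 GAPDH counts, with 1 symbol per library (circle, square and triangle for libraries 1, 2 and 3) and the mean with 1 SD to the right of each group. GAPDH spreads from 1700 to 3437 CPM within sh-NC, and the order of the sh-NC libraries for IGF2BP3 turns around once it is divided by GAPDH.

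Of the 4 lactate members, the exporter SLC16A3 was the 1 whose groups did not overlap (25%, against 13.2% of all tested genes). SLC16A3 (ENSG00000141526, chr17:82217934-82261129, plus strand), which encodes MCT4, the exporter typical of glycolytic cells, stood at 289, 204 and 152 CPM in sh-NC and at 503, 463 and 326 CPM in sh-IGF2BP3. Every sh-IGF2BP3 library lay above every sh-NC library, and the mean was 2.01 times that of sh-NC. This gave a log2 fold change of 1.00 (SE 0.24, unadjusted p = 0.000798, adjusted p = 0.103, edgeR). Its transcript had a GC content of 62.7%, a property with which fold changes rose over all genes. SLC16A1, which encodes the widely expressed transporter MCT1, stood at 300, 242 and 217 CPM in sh-NC and 166, 238 and 271 CPM in sh-IGF2BP3, with overlapping groups (-0.17, SE 0.21). LDHA stood at 1156, 916 and 705 CPM in sh-NC and 875, 1039 and 973 CPM in sh-IGF2BP3, with all sh-IGF2BP3 values inside the sh-NC range (0.06, SE 0.21, and -0.13 without sh-NC 3). LDHB, with the counting limit given above, had a log2 fold change of 0.21.

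Of the 6 pentose phosphate members, 5 had log2 fold changes above 0, with a median of 0.38. TALDO1, the transaldolase of the non-oxidative branch, stood at 104, 93.5 and 71.1 CPM in sh-NC and at 126, 157 and 115 CPM in sh-IGF2BP3, without overlap (0.57, SE 0.20, unadjusted p = 0.0122, adjusted p = 0.138, edgeR). TKT, the transketolase of the same branch, had a log2 fold change of 0.47 (unadjusted p = 0.043), but its lowest sh-IGF2BP3 value of 611 CPM lay just under its highest sh-NC value of 614 CPM. PGD, the NADPH-producing 6-phosphogluconate dehydrogenase, had 0.36 and RPIA, the ribose 5-phosphate isomerase, had 0.34, both with overlapping groups. PGLS had 0.40 with overlapping groups, but 0.05 without sh-IGF2BP3 1, its highest library at 20.7 CPM. RPE, the ribulose phosphate epimerase, was the exception, at 60.8, 68.2 and 70.5 CPM in sh-NC and 42.9, 66.2 and 65.5 CPM in sh-IGF2BP3, where sh-IGF2BP3 1 alone was low.

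Pyruvate entry held both the lowest fold changes of the 39 and the third highest. PDK1 (ENSG00000152256, chr2:172555373-172608669, plus strand), a hypoxia-induced kinase that switches pyruvate dehydrogenase off, stood at 19.9, 23.9 and 22.9 CPM in sh-NC and at 10.98, 14.6 and 16.1 CPM in sh-IGF2BP3. Each sh-IGF2BP3 value lay below each sh-NC value, and the log2 fold change was -0.68 (SE 0.23, unadjusted p = 0.00868, adjusted p = 0.126, edgeR). Its transcript had a GC content of 39.8%, at the low end of the members. PDK3 stood at 27.6, 39.3 and 43.5 CPM in sh-NC and at 24.1, 25.1 and 28.4 CPM in sh-IGF2BP3, where sh-NC 1 lay just under sh-IGF2BP3 3 (-0.51, SE 0.21, unadjusted p = 0.0287). The widely expressed kinase PDK2 had a log2 fold change above 0, with 23.9, 26.4 and 24.01 CPM in sh-NC and 42.0, 31.0 and 27.2 CPM in sh-IGF2BP3 (0.43, SE 0.21, unadjusted p = 0.0576), and its groups did not overlap.

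MPC2, which with MPC1 forms the mitochondrial pyruvate carrier, stood at 10.2, 8.68 and 8.33 CPM in sh-NC and at 12.9, 18.2 and 11.3 CPM in sh-IGF2BP3, without overlap (0.64, SE 0.26, adjusted p = 0.166, edgeR). MPC1 had a log2 fold change of 0.36 with overlapping groups. PDHA1, the catalytic E1 alpha subunit that the kinases phosphorylate, stood at 91.4, 89.6 and 83.8 CPM in sh-NC and at 99.1, 116 and 100.6 CPM in sh-IGF2BP3, also without overlap (0.26, SE 0.18, adjusted p = 0.399, edgeR). The subunits PDHB, DLAT and DLD had log2 fold changes of 0.15, -0.01 and -0.08 and overlapping groups.

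The make-up of an enzyme can differ where its sum does not, so the share of each isozyme in the summed FPKM of its set was compared for 15 shares. Of these, 7 did not overlap between the groups. Each had p = 0.1 in the exact two-sided permutation test, the lowest value that 3 against 3 libraries allow. The adjusted p of this test over the 15 shares was 0.214 for each. Shares within a set are tied, because they add up to the whole set, so the 7 are not separate results. Among them, the 3 kinases PDK1, PDK2 and PDK3 belong to the same set. How often shares in sets of other genes do not overlap was not taken, so the count of 7 has no background. SLC16A3 made up 39.8%, 36.7% and 32.4% of the 2 lactate transporters in sh-NC, against 67.6%, 57.3% and 45.3% in sh-IGF2BP3. PDK1 made up 18.4%, 18.5% and 18.3% of the 3 kinases in sh-NC, against 7.54%, 12.2% and 14.2% in sh-IGF2BP3. PDK2 made up 59.9%, 55.6% and 52.1% in sh-NC, against 78.4%, 70.1% and 64.7% in sh-IGF2BP3, so the kinases were weighted toward PDK2 in each sh-IGF2BP3 library. PDK3 made up the remainder, 21.7% to 29.6% in sh-NC and 14.1% to 21.2% in sh-IGF2BP3. The size of a share depends on the gene lengths behind the FPKM. For PDK3 and PFKP these were 17456 and 7774 bases, against 4951 and 4836 exonic bases in GENCODE 29, so which isozyme holds most of a set is uncertain there.

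The other shares without overlap were those of ALDOC, PFKFB3 and PFKM. ALDOC made up 86.2% to 91.4% of the 2 aldolases in sh-NC and 73.8% to 84.9% in sh-IGF2BP3, which rests on the uncertain counts of ALDOA. PFKFB3 made up 75.6% to 78.7% of PFKFB2 and PFKFB3 in sh-NC and 82.3% to 87.6% in sh-IGF2BP3. PFKM made up 36.2% to 41.1% of the phosphofructokinase subunits in sh-NC and 30.5% to 34.2% in sh-IGF2BP3. The shares of PFKL and PFKP overlapped, as did those of HK2, SLC2A1, ENO2, ENO3, LDHB and MPC2. HK2 varied most within a group, from 38.8% to 67.3% of the 2 hexokinases in sh-NC.

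**Figure D4:**
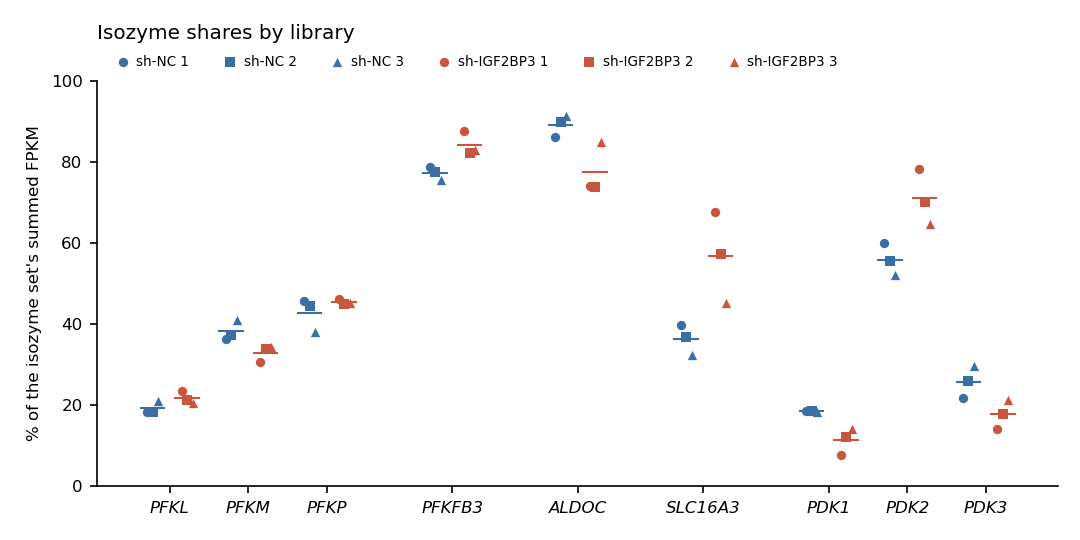
Share of each isozyme in the summed FPKM of its set (%), by library, for the sets PFKL with PFKM and PFKP, PFKFB2 with PFKFB3, ALDOA with ALDOC, SLC16A1 with SLC16A3, and PDK1 with PDK2 and PDK3; horizontal lines are group means and symbols libraries 1, 2 and 3. The SLC16A3 share is 32.4% to 39.8% in sh-NC and 45.3% to 67.6% in sh-IGF2BP3, and the PDK1 share is 18.3% to 18.5% in sh-NC and at most 14.2% in sh-IGF2BP3.

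GC content went with the fold changes, both over all genes and over the members. Over 16236 genes with a known GC content, Spearman's rho between GC content and log2 fold change was 0.611 across genes, which are not independent replicates, and over the 39 members it was 0.645. All points share the same 6 libraries. All 23 members with a GC content of 50% or more had log2 fold changes above 0, with a median of 0.40, against 0.30 for all genes of that range. Of the 16 members under 50%, 8 were above 0 and 8 below, with a median of 0.03, against -0.23 for all genes of that range. When genes were compared within bins of 5% of GC content, 30 of the 39 members lay above their bin's median and 18 above its upper quartile.

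Removing each library's trends with GC content and gene length moved the median of the members to 0.21 and that of all genes to 0.01. In that fit 0 members passed the threshold. At the same time 4 members were higher at an unadjusted p under 0.05, ALDOA, SLC16A3, MPC2 and PDHA1, or 10.3%, against 6.86% of all genes, and 0 were lower, against 3.54%. SLC16A3 moved from 1.00 to 0.61 (unadjusted p = 0.0208), with groups that still did not overlap, and MPC2 moved up to 0.78 (unadjusted p = 0.00485). PDK1 moved to -0.28 (unadjusted p = 0.118), PFKL to 0.16 and GAPDH to 0.06. The values of SLC16A3, PDK1, PFKL and GAPDH each moved by more than 1.5 times. IGF2BP3 itself moved to -0.22 (unadjusted p = 0.258). Of the shares without overlap, those of SLC16A3, PDK1, PDK2 and ALDOC stayed without overlap after the correction, with differences of 10.5, -2.58, 4.29 and -12.8 percentage points. Those of PFKM, PFKFB3 and PDK3 overlapped.

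**Figure D5:**
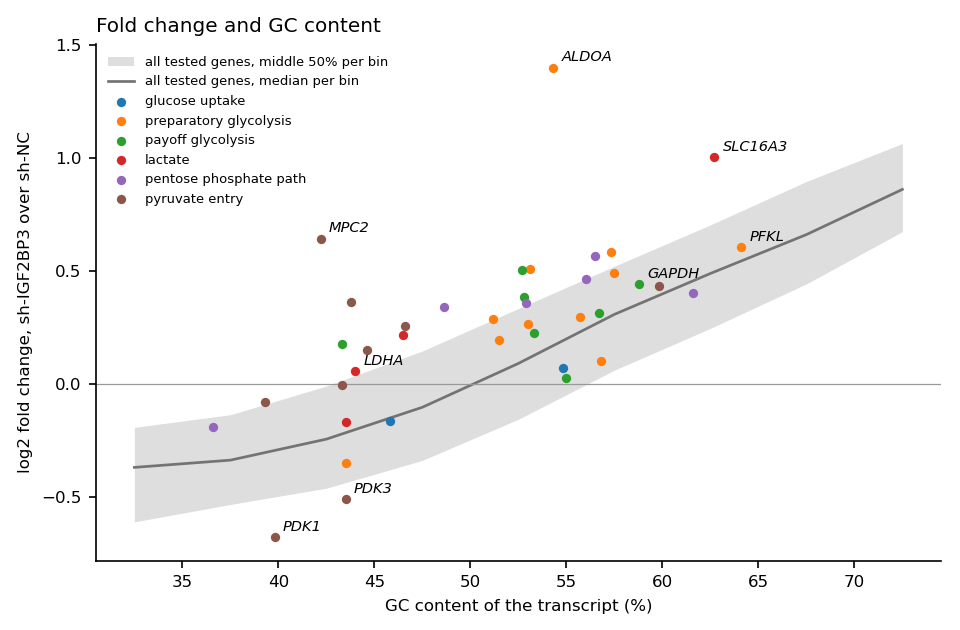
Log2 fold change of the 39 members, sh-IGF2BP3 over sh-NC, against the GC content of the longest annotated transcript (%), coloured by step; the grey line and band are the median and the middle 50% of all tested genes in bins of 5%. The line climbs from -0.37 in the bin from 30% to 0.86 in the bin from 70%, and 30 of the 39 members lie above their bin's median, of which 18 lie above the band, among them the labelled ALDOA, SLC16A3 and MPC2.

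The promoter sequence was read for members with different signs, because SLC16A3, PDK1, LDHA and ENO1 are textbook targets of hypoxia-inducible factor, whose core site is ACGTG or GCGTG. The 120 bases upstream of a RefSeq start of each gene are shown (GRCh38.p14, 5′ to 3′ on the strand of the gene). These cores, and their reverse complements CACGT and CACGC, are in capitals. Where a gene had several starts, the 1 with the most cores in these bases was taken, so the choice favours cores. SLC16A3 had 5 starts, PDK1 and LDHA 2 each, and ENO1, PDK3 and PFKL 1 each. Some other windows of SLC16A3 and PDK1, of 300 bases around a start, held no core. Overlapping cores run together.
SLC16A3, chr17:82228922-82229041, plus strand: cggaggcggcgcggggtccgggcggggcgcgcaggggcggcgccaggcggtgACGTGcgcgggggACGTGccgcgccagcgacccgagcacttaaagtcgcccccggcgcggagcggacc
PDK1, chr2:172555970-172556089, plus strand: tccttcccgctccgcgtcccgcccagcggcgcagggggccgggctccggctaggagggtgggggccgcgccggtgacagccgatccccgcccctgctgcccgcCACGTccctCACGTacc
LDHA, chr11:18394443-18394562, plus strand: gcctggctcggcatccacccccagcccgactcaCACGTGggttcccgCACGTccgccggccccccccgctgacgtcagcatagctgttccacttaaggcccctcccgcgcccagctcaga
ENO1, chr1:8878687-8878806, minus strand: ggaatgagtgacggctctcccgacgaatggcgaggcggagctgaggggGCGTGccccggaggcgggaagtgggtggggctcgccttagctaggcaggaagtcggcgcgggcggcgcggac
SLC16A3 and PDK1 each hold 2 cores in this stretch, LDHA holds 3 and ENO1 holds 1. The same stretch, read but not shown, holds 2 cores for PDK3 and 0 for PFKL, with log2 fold changes of -0.51 and 0.61. PFKL holds 1 core farther upstream, at -164. Of the genes shown, the log2 fold changes were 1.00 for SLC16A3, -0.68 for PDK1, 0.06 for LDHA and 0.51 for ENO1. Of the 68 windows of 300 bases that the table holds for 36 of the members, 42 held a core (61.8%), against 48.4% of the 35116 windows of all genes. By gene, 31 of the 36 members held a core in at least 1 window (86.1%), against 52.4% of the 27305 genes. The members had more windows per gene than all genes, which by itself raises the share by gene. A match of letters is a description and shows no binding.

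Of 50 other genes of the same pathways, listed by function, 35 passed the filter on low counts. None passed the threshold in the main test (edgeR), 16 were above 0 and 19 below 0, and their median log2 fold change was -0.02. At an unadjusted p under 0.05, 5 were higher (14.3%, against 13.6% of all tested genes) and 4 lower (11.4%, against 8.54%). BSG, the chaperone that carries MCT1 and MCT4 to the cell surface, stood at 365, 285 and 241 CPM in sh-NC and at 606, 573 and 383 CPM in sh-IGF2BP3 (0.81, SE 0.22, unadjusted p = 0.00231). Its groups did not overlap, and its values followed the same order over the libraries as those of SLC16A3, an order that PFKP also had. The glucose transporter SLC2A6 stood at 25.1, 14.7 and 14.9 CPM in sh-NC and 32.7, 37.8 and 30.4 CPM in sh-IGF2BP3 (0.88, SE 0.24), and PGP, which clears toxic side products of glycolysis, at 37.3, 29.04 and 22.9 CPM in sh-NC and 53.2, 55.4 and 46.2 CPM in sh-IGF2BP3 (0.80, SE 0.21). HKDC1, a hexokinase-like gene, stood at 9.20, 7.06 and 7.56 CPM in sh-NC and at 5.38, 2.42 and 2.39 CPM in sh-IGF2BP3 (-1.22, SE 0.34, unadjusted p = 0.00261). These 4 genes, and no others of the list, passed the threshold with DESeq2 and with no filter on low counts, and without sh-NC 1 they passed with 4 more. With DESeq2, 3 of 32 were higher and 1 lower, against 4.29% and 1.05% of all genes. With no filter, 3 of 48 were higher and 1 lower, against 1.89% and 0.413%. Without sh-NC 1, 4 of 36 were higher and 4 lower, against 10.01% and 5.67%. With GC content and length trends removed, HKDC1 stood at -1.38 (unadjusted p = 0.000876), whereas BSG moved to 0.35 and SLC2A6 to 0.36.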

How the data were processed

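RNA-seq libraries of HCT116 cells, 3 sh-NC and 3 sh-IGF2BP3, were analysed from 2 tables. The authors deposited raw counts per Ensembl gene (GRCh38) and FPKM values, which equal the counts over the library total and over 1 fixed length per gene. The aligner, the counter and the use of strand are not given in the sources used here, and CASAVA is the only tool in the submitters' processing notes. Reads that fit several genes may therefore be counted or dropped, which bears on overlapping genes.

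Counts were filtered with filterByExpr, scaled by TMM and fitted with the quasi-likelihood model of edgeR 4.0.16 (R 4.3.3), with Benjamini-Hochberg adjustment over all genes tested. The thresholds, a fold change of 1.5 and an adjusted p of 0.05, are those of the study's methods. The 2 groups were compared over all 6 libraries, and single values by exact two-sided permutation tests of the 6 libraries. Alternatives were DESeq2 1.42.0, RLE and upper-quartile scaling, no filter, a minimum of 10 counts per library, a block for the replicate number, leaving out each library, pseudogene counts added and any fold change. Others were limma 3.58.1 on log2(FPKM + 1) or log2(FPKM + 0.1) at a mean FPKM of at least 1, and removal of each library's trend (spline, 5 degrees of freedom) with GC content, or with GC content and gene length. GC content was that of the longest GENCODE 29 transcript, and gene length was the length behind the deposited FPKM. Trend removal without each library was added after the data were seen. The tests were tested on simulated data.

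The members, the other pathway genes and the epithelial, fibroblast, immune and endothelial markers were chosen with earlier results of these data known. By the rule for named genes, values by library are given for members whose groups do not overlap, for the 4 tested members with the highest and the 4 with the lowest log2 fold change, for isozymes whose shares do not overlap, for GAPDH, LDHA, PKM and HK2, and for other pathway genes with an unadjusted p under 0.01. MPC1 and ALDOA had the fewest counts of the members.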

Additional observations from a re-analysis of the deposited data

How the results depend on the processing

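No member passed the main test, and the counts at an unadjusted p moved with single libraries and with the removal of trends. Depth as a limit was not tested. The number of members that passed was 0 in the main test, 2 with DESeq2, 2 with no filter on low counts, 0 to 14 with 1 library left out, and 0 to 5 with the trends in GC content and length removed and 1 library left out, a setting chosen after the data were seen. In each case the most came without sh-NC 1. Over all genes the number that passed was 0 in the main test, 699 with DESeq2, 837 with no filter, 1 with RLE scaling, 1 with at least 10 counts in every library, 1 with limma on log2(FPKM + 1), 0 to 2724 with 1 library left out, and 0 to 905 with the trends removed and 1 library left out. Members higher at an unadjusted p under 0.05 numbered 10 in the main test, 5 with the GC trend removed, 4 with GC and length trends removed, 3 with these and the replicate block, and 3 to 17 with 1 library left out. Members lower numbered 2, and 1, 0, 0 and 1 to 2 in the same order, with 1 by limma on log2(FPKM + 0.1) and 0 on log2(FPKM + 1). Of all tested genes, 13.6% were higher and 8.54% lower in the main test, and 6.86% and 3.54% with GC and length trends removed. For the left-out fits with 3 and with 17 members higher, that share is given above. It was not taken for the GC trend alone, the replicate block or limma, so those counts have no background. The median log2 fold change of the members, 0.29, stayed above 0 in every alternative, at 0.18 to 0.41 with 1 library left out and 0.078 to 0.364 with trends removed as well, the lowest without sh-NC 3.

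The study's text speaks of pairs of control and knockdown cells, but the labels do not say what libraries with the same number share. Deviations of same-numbered libraries correlated at -0.28, -0.19 and -0.04, so the numbers were not taken as pairs. With the replicate block 0 members and 0 of all genes passed. In that fit 10 members were higher and 2 lower at an unadjusted p under 0.05, and the share of all genes at that p was not taken. No library correlated best with its own number.

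With the GC and length trends removed, the difference of a share was -0.97 percentage points for PFKL, -0.82 for PFKM, 2.19 for PFKFB3, 10.5 for SLC16A3, -2.58 for PDK1, 4.29 for PDK2 and -1.71 for PDK3. The log2 ratio to GAPDH was -1.06 for IGF2BP3 and -1.55 for SLC7A11, and -0.28 and -0.66 with the trends removed. Without division by GAPDH, the log2 ratio of CPM was -0.54 for IGF2BP3 and -0.996 for SLC7A11. With 1 library left out these values kept their signs, at 1.73 to 3.41 for PFKL, -6.29 to -3.84 for PFKM, 5.26 to 7.95 for PFKFB3, 15 to 26.1 for SLC16A3, -8.58 to -5.27 for PDK1, 11.5 to 18.4 for PDK2 and -10.1 to -6.13 for PDK3, and at -1.21 to -0.90 for IGF2BP3 and -1.80 to -1.35 for SLC7A11.

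Signs turned for some members, PGLS from 0.40 and HK2 from 0.29 and the others from values between -0.19 and 0.10, and the cause was not tested. With GC and length trends removed, the log2 fold change became -0.049 for SLC2A1, 0.017 for SLC2A3, -0.23 for ALDOC, -0.19 for ENO2, 0.032 for SLC16A1, -0.13 for PGLS, 0.055 for RPE, 0.23 for DLAT and 0.19 for DLD. With the replicate block as well, it was 0.062 for SLC2A3, -0.22 for ALDOC, -0.14 for ENO2, 0.046 for SLC16A1, -0.15 for PGLS, 0.049 for RPE, 0.27 for DLAT and 0.20 for DLD. With the GC trend alone removed, it was -0.090 for SLC2A1, -0.16 for ALDOC, -0.16 for ENO2, 0.015 for SLC16A1, -0.083 for PGLS, 0.14 for RPE, 0.19 for DLAT and 0.21 for DLD. ENO2 was at -0.007 and -0.012 with limma on log2(FPKM + 0.1) and log2(FPKM + 1) and at -0.038 with upper-quartile scaling, and DLAT was at 0.002 with DESeq2 and 0.015 with the replicate block. With 1 library left out, the log2 fold change ranged from -0.12 to 0.48 for SLC2A1, -0.40 to 0.18 for SLC2A3, -0.026 to 0.79 for HK2, -0.014 to 0.17 for ALDOC, -0.20 to 0.19 for ENO2, -0.13 to 0.25 for LDHA, -0.35 to 0.010 for SLC16A1, -0.19 to 0.16 for DLAT and -0.19 to 0.007 for DLD.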
